A study of Mus musculus with 4 samples.

Results

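A set of 9 genes that write, keep or remove methylation on cytosine was examined in mouse embryonic stem cells with and without Npac, and all 9 were found by their symbols among the 56748 genes listed in the deposited tables. They are Dnmt1, Uhrf1, Dnmt3a, Dnmt3b, Dnmt3l, Tet1, Tet2, Tet3 and Tdg, and all 9 passed the filter on low counts, as did 18157 genes in all. The RNA-seq libraries came from E14, a line of mouse embryonic stem (ES) cells grown without feeder cells in serum with LIF. There were 2 libraries of WT genotype (WT1 and WT2) and 2 libraries of Npac knockout genotype (KO1 and KO2), and both genotypes had the same parental line and the same medium. The knockout was made with CRISPR/Cas9 plasmids followed by puromycin selection and picking of colonies, so KO1 and KO2 each stand for 1 picked line. Npac, listed as Glyr1, is a reader of the histone mark H3K36me3. Nothing in the labels says whether WT1 and WT2 were separate cultures, so p-values measure only the spread between these libraries, which may be technical.

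DNA methylation is placed on unmethylated CpG sites by Dnmt3a and Dnmt3b, which work with the inactive relative Dnmt3l, and it is copied onto new strands at replication by Dnmt1, which Uhrf1 brings to hemimethylated sites. The Tet enzymes oxidise 5-methylcytosine (5mC), and the glycosylase Tdg cuts the most oxidised forms out so that base excision repair can restore cytosine. H3K36 methylation is known to draw Dnmt3a and Dnmt3b to chromatin through their PWWP domains, and Npac carries a PWWP domain as well. In ES cells kept in serum, the de novo enzymes and Tet1 and Tet2 are known to be expressed together. No methylation was measured here. The values below are RNA levels, as reads counted on each gene, as CPM, the reads scaled to library size by the TMM method, or as FPKM, which also divides by gene length and serves to compare levels between genes. A value of CPM after ± is the SD over 2 libraries, and a log2 fold change has its standard error after ±.

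The libraries held between 15850805 and 16965120 counted reads. Glyr1 itself had 3961 and 3115 reads in WT1 and WT2 and 744 and 888 reads in KO1 and KO2 (log2 fold change -2.14 ± 0.23, adjusted p = 0.00174), so the libraries followed their labels. The ES cell markers were present in all 4 libraries, and 0 of the 6 were called between genotypes, while 1 of the 6 had an unadjusted p under 0.05 and DESeq2 also called 0. Without WT1 1 of them was called higher and without WT2 1 was called lower. Of 9 naive pluripotency markers, 6 were called lower and 2 higher, beside 10.7% and 11.0% of all genes tested. With limma on log2(FPKM + 1), 6 were called lower and 1 higher. Klf2, 1 of the 2 called higher, lies on chromosome 8, where the median log2 fold change of all genes tested was 0.51. Of 6 primed markers tested 1 was called in each direction. Of 8 fibroblast markers, which would mark other cells in the dish, 5 passed the filter and 1, Col1a1, was called higher. Col1a1 lies on chromosome 11, where that median was 0.50. Without either KO library 0 primed and 0 fibroblast markers were called higher with edgeR, and without WT2 3 fibroblast markers were. Their summed level was 43.4 and 80.3 CPM in WT1 and WT2 and 55.4 and 65.9 CPM in KO1 and KO2, with Dcn and Col3a1 at 0 reads throughout. The part of a changed pluripotency state in the results below was not tested, and in bulk RNA a change in the share of cells cannot be told apart from a change within cells.

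A gene was called when its edgeR quasi-likelihood p, adjusted over all genes tested by the Benjamini-Hochberg method, was below 0.05 and its fold was above 1.5. Of the 9 genes, 2 were called higher in Npac KO cells (Dnmt3a and Tdg), 1 was called lower (Tet2), and 6 were not called. Over all genes tested, 11.0% were called higher and 10.7% lower. Tdg has a near-identical pseudogene that also held reads, and when the reads of Tdg and its copies were summed Tdg was no longer called, which leaves 1 gene called higher. Both KO libraries lay above both WT libraries in 5 of the 9 genes and below them in 2, against 33.2% and 32.5% of all genes tested. The median log2 fold change was 0.20 over the 9 genes and 0.0015 over all genes tested. With so few genes, these shares do not set the group apart from the rest of the transcriptome, and the description below is of single genes.

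**Figure D1:**
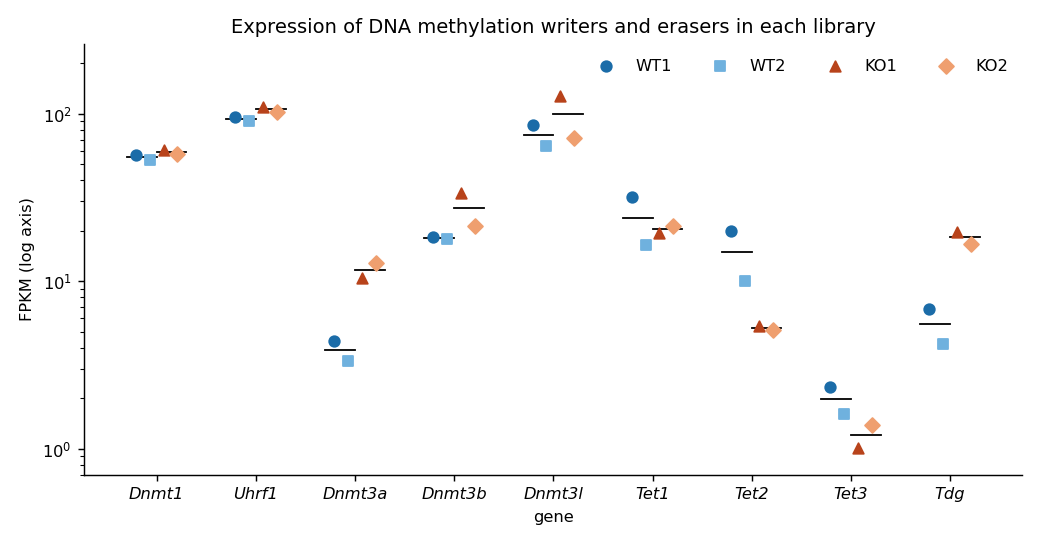
FPKM of the 9 genes (log axis) in the 4 libraries, with circles for WT1, squares for WT2, triangles for KO1, diamonds for KO2 and short lines for the mean of each genotype (n = 2). Dnmt3a and Tdg sit higher in both KO libraries and Tet2 sits lower, while the symbols of Tet1 and Dnmt3l overlap between genotypes.

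**Figure D2:**
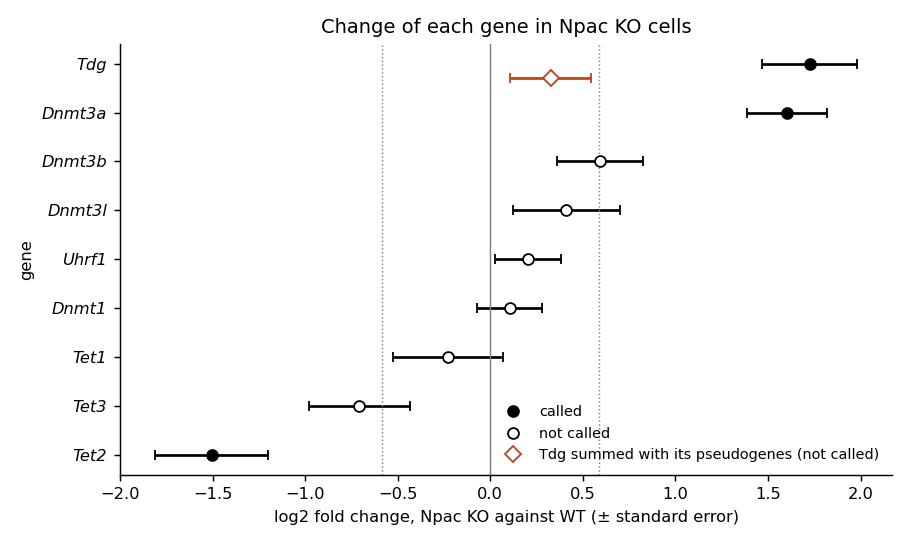
Log2 fold change of each gene in Npac KO against WT cells, with bars for the standard error from edgeR. Filled circles are called, open circles are not, dotted lines mark a fold of 1.5 in either direction, and the open diamond at 0.33 is Tdg with the reads of its pseudogenes added.

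Neither gene of the maintenance pair was called. Dnmt1 (chromosome 9, 20818505 to 20871184 in the coordinates of the files, which are not GRCm38 positions) had 6433 and 6869 reads in WT1 and WT2 and 6941 and 7431 reads in KO1 and KO2. Its level was 406 ± 19.8 CPM in WT and 437 ± 12.1 CPM in KO, and its log2 fold change was 0.11 ± 0.18 (adjusted p = 0.703). Uhrf1 (chromosome 17, 56610321 to 56630486) had 6217 and 6767 reads in WT and 7319 and 7689 reads in KO1 and KO2. Its CPM went from 396 ± 13.9 to 457 ± 18.8, a log2 fold change of 0.20 ± 0.18 (adjusted p = 0.438). For both genes the KO libraries lay above the WT libraries by a margin that the test did not separate from the spread, and each estimate stayed uncalled in 12 of 12 other settings of the analysis. Uhrf1 shares sequence with the pseudogene Gm5648, which held at most 24 reads in any library.

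Dnmt3a was the writer with the clear change. It encodes a de novo methyltransferase and lies on chromosome 12 from 3856007 to 3964443. It had 1125 and 984 reads in WT1 and WT2 and 2728 and 3785 reads in KO1 and KO2, so each KO library held more than either WT library. The level rose from 64.9 ± 12.2 CPM to 197 ± 30.5 CPM, 3.03-fold (log2 fold change 1.60 ± 0.22, adjusted p = 0.00394). This call was kept in 12 of 12 other settings of the analysis, with log2 fold changes from 1.38 to 1.78. Reads are counted per gene, so the long and short Dnmt3a isoforms, which begin at different promoters, cannot be told apart. The antisense gene Dnmt3aos, which overlaps it, had at most 3 reads in a library.

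Dnmt3b (chromosome 2, 153491370 to 153529650), the other de novo methyltransferase, had 1447 and 1614 reads in the WT libraries, 2665 reads in KO1 and 1916 in KO2. The 2 WT values were close together and the 2 KO values were not. Its CPM was 93.4 ± 1.67 in WT and 141 ± 42.9 in KO, and the log2 fold change of 0.59 ± 0.23 was not called (adjusted p = 0.107). Without KO1 the log2 fold change was 0.23 and without KO2 it was 0.87, and neither was called. With no filter on low counts it became a call (log2 fold change 0.60, adjusted p = 0.0389). The paralog Dnmt3c, known for its role in male germ cells, had 3, 2, 6 and 14 reads in WT1, WT2, KO1 and KO2 and was not tested.

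Dnmt3l (chromosome 10, 77877781 to 77899456), the cofactor without catalytic activity, had 3916 and 3367 reads in WT1 and WT2 and 5922 and 3738 reads in KO1 and KO2. KO2 fell between the WT libraries, so the genotypes overlapped. The log2 fold change was 0.41 ± 0.29 (adjusted p = 0.338), and without KO1 it was -0.07. Its span overlaps 1664 bases of Aire on the opposite strand, a gene with 1174, 1118, 1124 and 631 reads in WT1, WT2, KO1 and KO2. Since the sources used here do not state whether counting used strand, reads of Dnmt3l and Aire may not be fully separate.

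The make-up of the de novo group followed these values. Per length, Dnmt3l was the most abundant of the 3 genes, with 78.9% and 75.0% of their summed FPKM in WT1 and WT2 and 74.3% and 67.5% in KO1 and KO2. The share of Dnmt3a was 4.07% in WT1 and 3.94% in WT2, against 6.14% in KO1 and 12.3% in KO2. Between the catalytic enzymes alone, Dnmt3a made up 19.3% and 15.8% of the FPKM in WT1 and WT2, and 23.9% and 37.7% in KO1 and KO2. By this measure Dnmt3b RNA stayed above Dnmt3a RNA in each library. That order rests on the gene lengths used, 16642 bases for Dnmt3a and 5106 bases for Dnmt3b. In reads, Dnmt3a was above Dnmt3b in KO1 (2728 against 2665) and in KO2 (3785 against 1916). These shares are descriptions, because an exact permutation test of 2 against 2 libraries cannot give a p below 0.333.

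**Figure D3:**
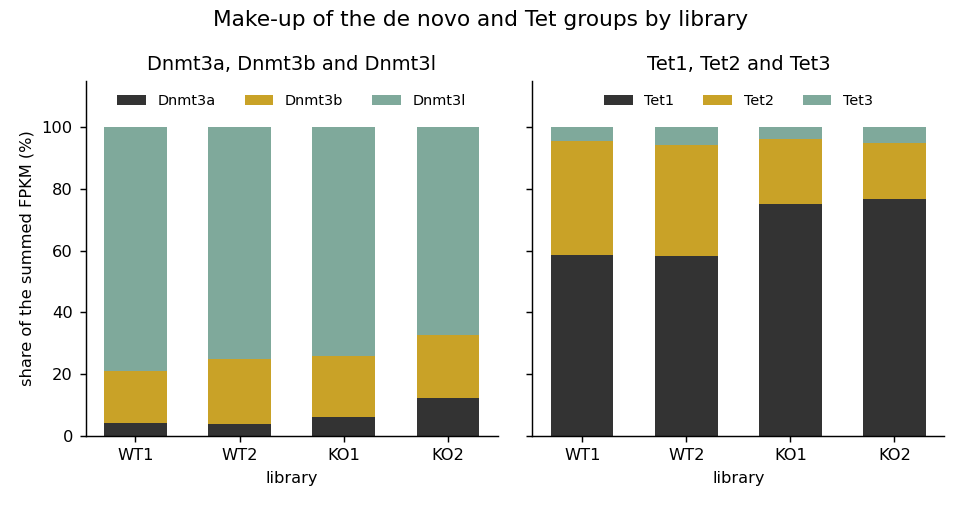
Share of the summed FPKM (%) held by Dnmt3a, Dnmt3b and Dnmt3l (left) and by Tet1, Tet2 and Tet3 (right) in each library, as stacked bars. The Tet2 part falls from 36.9% and 35.9% in the WT libraries to 21.0% and 18.3% in the KO libraries, and the Dnmt3a part grows to 12.3% in KO2.

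Among the oxidases, Tet2 was the one called. Tet2 (chromosome 3, 133169440 to 133250900) had 5151 and 2993 reads in WT1 and WT2 and 1423 and 1516 reads in KO1 and KO2. The KO values were close to each other and below both WT values, while WT1 stood well above WT2. The level fell from 254 ± 117 CPM to 89.4 ± 2.79 CPM, so WT was 2.84-fold above Npac KO (log2 fold change -1.51 ± 0.31, adjusted p = 0.0144). Leaving out WT1 gave -0.96 and leaving out WT2 gave -1.91, and without KO2 the value was -1.47 with an adjusted p of 0.0607, which is above the threshold. The call was kept in the other 11 of 12 settings.

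Tet1 (chromosome 10, 62640349 to 62744775), the oxidase most abundant in ES cells, had 7513 and 4449 reads in WT1 and WT2 and 4671 and 5822 reads in KO1 and KO2. Both KO libraries fell between the WT libraries, which differed from each other by 0.95 on the log2 scale of CPM. The log2 fold change was -0.23 ± 0.30 (adjusted p = 0.615). Its sign rested on the choice of WT library, with 0.29 when WT1 was left out and -0.63 when WT2 was left out, the latter with an adjusted p of 0.0137. Tet3 (chromosome 6, 83339355 to 83436066), the oxidase known from the zygote, was low in all libraries, with 597 and 477 reads in WT1 and WT2 and 265 and 408 reads in KO1 and KO2. Its CPM was 33.1 ± 8.32 in WT and 20.3 ± 4.60 in KO, and the log2 fold change of -0.71 ± 0.27 was not called (adjusted p = 0.099). Without WT2 it was -0.94 with an adjusted p of 0.00216.

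The shares within the Tet group were close between libraries of 1 genotype. The share of Tet1 in the summed Tet FPKM was 58.8% in WT1 and 58.3% in WT2, although the sum itself was 53.8 FPKM in WT1 and 28.0 FPKM in WT2. In Npac KO cells the share of Tet1 was 75.1% and 76.7%, with sums of 25.8 FPKM in KO1 and 27.9 FPKM in KO2. The share of Tet2 went from 36.9% and 35.9% to 21.0% and 18.3%, and that of Tet3 lay between 3.94% and 5.79% in the 4 libraries. The summed Tet level of WT2 was close to those of the KO libraries, while its split between Tet1 and Tet2 was close to that of WT1.

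Tdg (chromosome 10, 82465662 to 82486633) encodes the glycosylase that excises 5-formylcytosine and 5-carboxylcytosine, and it had the largest fold among the 9 genes as counted. It had 565 and 402 reads in WT1 and WT2 and 1657 and 1584 reads in KO1 and KO2, with no overlap between genotypes. The level went from 29.9 ± 9.87 CPM to 98.9 ± 10.6 CPM, 3.30-fold (log2 fold change 1.72 ± 0.26, adjusted p = 0.00538). This value has to be read beside the processed pseudogene Tdg-ps2, an intronless copy of the Tdg coding sequence on the same chromosome (41930109 to 41931302). Tdg-ps2 had 922 and 792 reads in WT1 and WT2 and 60 and 66 reads in KO1 and KO2, a log2 fold change of -3.78 ± 0.26 (adjusted p = 0.000352).

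The 2 sequences are alike over 1194 aligned bases with an identity of 99.2% and 9 mismatches. Of the 1045 windows of 150 bases, the length of 1 read, 607 hold no mismatch at all (58.1%). These windows lie within the aligned bases only, while the Tdg transcript has 2959 bases. They treat reads singly, although the reads were paired, so the share is not that of Tdg reads without a mismatch. Both sequences come from the reference, and whether E14 cells carry the same bases was not checked. The following stretch of 120 bases is shown because it holds 4 of the 9 mismatches, in capitals, where the 2 copies differ. It was read from GRCm38, whose positions differ from those listed in the files, from exon 10 of Tdg on the plus strand (chr10:82648578-82648697) and from Tdg-ps2 on the minus strand (chr10:42054136-42054255), each written 5′ to 3′ along the Tdg coding strand.
Tdg: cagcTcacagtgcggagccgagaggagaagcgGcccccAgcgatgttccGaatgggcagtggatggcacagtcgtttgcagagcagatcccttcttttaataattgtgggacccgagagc
Tdg-ps2: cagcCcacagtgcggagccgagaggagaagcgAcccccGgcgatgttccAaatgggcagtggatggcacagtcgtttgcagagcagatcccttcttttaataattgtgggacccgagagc
After the last capital the copies are the same to the end of the stretch.

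As a sum over its copies, Tdg was not called. The reads of Tdg, Tdg-ps2 and the smaller copies Tdg-ps, Gm5597 and Gm18293 summed to 1495 and 1206 in WT1 and WT2 and to 1744 and 1677 in KO1 and KO2. The summed level was 83.3 ± 20.4 CPM in WT and 104 ± 10.8 CPM in KO (log2 fold change 0.33 ± 0.22, adjusted p = 0.316). Tdg-ps2 held 61.7% of the summed reads in WT1 (95% exact Clopper-Pearson interval 59.2 to 64.1) and 65.7% in WT2 (62.9 to 68.4). It held 3.44% in KO1 (2.64 to 4.41) and 3.94% in KO2 (3.06 to 4.98). These intervals cover counting error only. The counts rose on Tdg and fell on Tdg-ps2. From them, a change in the transcripts of either copy and another assignment of the same reads cannot be told apart.

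**Figure D4:**
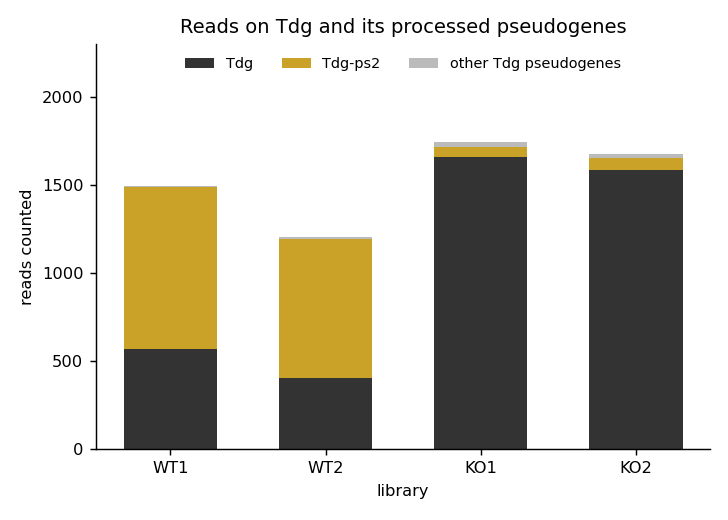
Reads counted on Tdg, on Tdg-ps2 and on the other Tdg pseudogenes in each library, as stacked bars from 0. The totals lie between 1206 and 1744 reads, while the Tdg-ps2 part shrinks from 922 and 792 reads in WT1 and WT2 to 60 and 66 reads in KO1 and KO2.

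Ordered by mean FPKM, the 9 genes ran in WT cells from Uhrf1 through Dnmt3l, Dnmt1, Tet1, Dnmt3b, Tet2, Tdg and Dnmt3a to Tet3. Uhrf1 had 94.9 FPKM in WT1 and 90.2 FPKM in WT2, and Tet3 had 2.33 and 1.62 FPKM. The neighbours Tet1 and Dnmt3b, Dnmt3b and Tet2, and Tdg and Dnmt3a overlapped in their WT values. In Npac KO cells the order was Uhrf1, Dnmt3l, Dnmt1, Dnmt3b, Tet1, Tdg, Dnmt3a, Tet2 and Tet3. Here the neighbours Uhrf1 and Dnmt3l, Dnmt3b and Tet1, and Tet1 and Tdg overlapped. The place of Tdg in both orders rests on its reads as counted, without those on Tdg-ps2. Dnmt3a stood at 4.40 and 3.36 FPKM in WT, below Tet2 at 19.9 and 10.1 FPKM. In the KO libraries this pair changed places, with Dnmt3a at 10.5 and 12.9 FPKM and Tet2 at 5.41 and 5.10 FPKM.

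For each called gene, the 3 genes with the most similar pattern were sought by the Euclidean distance of centred log2 CPM over the 4 libraries, among 11684 genes with a mean of at least 100 reads. Nearest to Dnmt3a were Pou2f2 (distance 0.18), Chek2 (0.18) and Dctd (0.18). Tet2 had Erbin (0.061), Sec16a (0.11) and Zbed3 (0.12) closest to it. For Tdg as counted they were Armcx1 (0.022), Csrnp3 (0.084) and Dmrt1 (0.084). A pattern over 4 libraries is short, and these names carry no more than that likeness.

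The wider pathway was followed in lists of writer partners, 5mC readers, and eraser partners with base excision repair, 48 genes of which 46 were tested. Of these, 10 were called higher and 5 lower, beside 11.0% and 10.7% of all genes tested, with a median log2 fold change of 0.09. Leaving out KO2 lowered these counts to 4 and 2, leaving out KO1 to 6 and 2, and leaving out WT2 gave 12 and 12.

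Among 16 tested writer partners, 5 were called higher and 0 lower, and the median log2 fold change was 0.17. By an unadjusted p under 0.05, 7 of the 16 passed (43.8%, beside 37.5% of all genes tested), and DESeq2 and limma each gave 5 higher and 0 lower as well. Without KO1 or without KO2 3 remained called higher, since Cdca7 and Ehmt2 were no longer called, and without WT1 1 was called lower. Dppa3, an inhibitor of Uhrf1 and of maintenance methylation, had 19 and 12 reads in WT1 and WT2 and 528 and 405 reads in KO1 and KO2 (log2 fold change 4.90 ± 0.41, adjusted p = 0.000704). Ahcy, which removes the methyltransferase product S-adenosylhomocysteine, rose from 79.0 ± 1.80 to 440 ± 44.2 CPM (log2 fold change 2.48, adjusted p = 0.000526). Mat2b, the regulatory subunit of methionine adenosyltransferase, rose by 1.23 on the log2 scale, the remodeller cofactor Cdca7 by 0.80 and the H3K9 methyltransferase Ehmt2 by 0.70. Mat2b lies on chromosome 11, where the median log2 fold change of all genes tested was 0.50. None of the 9 writers and erasers lies on chromosome 11 or on chromosome 8 (median 0.51), whereas for the remaining autosomes this median ranged from -0.19 to -0.0069.

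With the filter on low counts and no replicate block, the 8 readers of 5mC gave 0 calls in either direction on all 4 libraries. This held for edgeR, DESeq2 and limma. With the replicate number as a block in edgeR, 3 were called lower. By an unadjusted p under 0.05, 2 of the 8 passed (25%, beside 37.5% of all genes tested). The median log2 fold change of the 8 readers was -0.51. The lowest value was that of Zbtb4 at -1.02 ± 0.33 (adjusted p = 0.0615). Without WT2, 4 readers were called lower, and with no filter 1 was.

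Eraser partners and base excision repair genes went both ways, with 5 of 22 tested called higher, 5 called lower and a median of -0.06. Over all genes tested, 11.0% were called higher and 10.7% lower. By an unadjusted p under 0.05, 15 of the 22 passed (68.2%, beside 37.5% of all genes tested). Called higher were 1 without KO2, 3 without KO1 and 8 without WT1, and called lower were 2 without either KO library and 8 without WT2. Among the repair genes called higher, the nick ligase Lig3 rose by 1.54 on the log2 scale, the gap-filling polymerase Polb by 1.18, the scaffold Xrcc1 by 0.77 and Parp1, a sensor of strand breaks, by 0.69 (adjusted p from 0.00523 to 0.0426). Other repair genes of the list were not called, among them the abasic site endonuclease Apex1 (-0.24) and the glycosylases Neil2 (-0.62) and Neil3 (-0.41). Lig3 lies on chromosome 11 and Polb on chromosome 8, while Xrcc1 and Parp1 lie on chromosomes 7 and 1. Called lower were Gadd45a (log2 fold change -2.48), a stress-response gene linked to demethylation, and Hmces (-1.72), which protects abasic sites. Prdm14 (-1.18), a repressor of de novo methyltransferase genes in ES cells, Ogt (-1.18), the O-GlcNAc transferase that binds Tet proteins, and the glycosylase Smug1 (-0.92) were lower as well. The paralogs of Gadd45a in the list, Gadd45b (0.63) and Gadd45g (2.32), had higher estimates in Npac KO and were not called. Parp1, Xrcc1, Ogt, Prdm14 and Smug1 each lost the call when either KO library was left out, and Polb lost it without KO2.

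**Figure D5:**
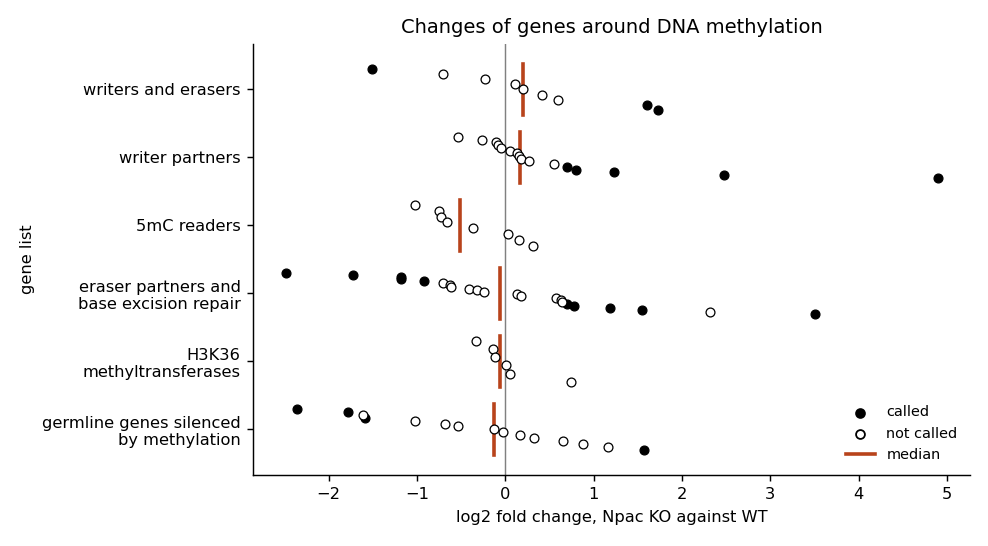
Log2 fold change (Npac KO against WT) of each tested gene in 6 lists, with filled circles for called genes, open circles for genes not called and a bar at the median. The 16 writer partners reach 4.90 with Dppa3 and hold 5 filled circles on the right, while the 22 eraser partners and repair genes hold 5 on each side.

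The enzymes that set H3K36 methylation, the mark that Npac reads, gave 0 calls among 6 genes tested with edgeR, DESeq2 or limma, and 0 of 6 had an unadjusted p under 0.05. Without WT2, 1 was called higher. Setd2, the trimethylase, had 2140, 1913, 1918 and 2193 reads in WT1, WT2, KO1 and KO2.

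Germline genes whose promoters are known as targets of silencing by methylation were a list of 15, all tested, with a median log2 fold change of -0.13. By mean FPKM in WT cells they ran from Asz1 (0.138 in WT1 and 0.542 in WT2) to Rpl10l (51.7 and 92.2). They were thus not all silent in these cells, and their methylation was not measured. Of the 15, 1 was called higher and 3 were called lower, beside 11.0% and 10.7% of all genes tested. The meiotic gene Hormad1 was the one higher (1.57), and Taf7l (-2.36), Sycp3 (-1.78) and Rpl10l (-1.59) were lower. These counts moved when single libraries were left out. Called higher were 6 without WT2 and 0 without KO2, and called lower were 7 without WT1 and 1 without KO1. By an unadjusted p under 0.05, 7 of the 15 passed (46.7%, beside 37.5% of all genes tested).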

How the data were processed

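RNA was sequenced as paired-end reads of 150 bases. The submitters' processing notes name CASAVA, HISAT2 2.0.5, featureCounts 1.5.0-p3 and mm10; strand settings are not given in the sources used here. The authors deposited raw read counts per gene and FPKM values made from the same counts, with a gene length. The library size implied by FPKM is not the total count in any library and is the same, 17622289, in WT2 and KO2, whose totals differ (16568283 and 16965120). Listed starts of the 9 genes differ from those of GRCm38 while their spans have the same length, so coordinates are given as listed, except those of the printed sequences.

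The count test was edgeR 4.0.16 in R 4.3.3 (filterByExpr, TMM, quasi-likelihood test, Benjamini-Hochberg adjustment over 18157 genes). Mean and SD are of TMM-scaled CPM. The common biological coefficient of variation was 0.235. Total counts ran from 15850805 to 16965120, and no sample was left out. Alternatives used DESeq2 1.42.0, limma 3.58.1 on log2(FPKM + 1) and log2(FPKM + 0.1), other scalings, other filters, a replicate block and leaving out each library.

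Near-identical pseudogenes were found with blastn 2.17.0 (at least 90% identity over 60% of their length), and the sums with them were added after the data were seen. The 9 genes and the lists were chosen with earlier results of these data known. Named from the lists were the called genes, up to 6 with the largest change per list; the 9 genes, Glyr1, genes overlapping them and the nearest patterns were named in any case. Ogt, Smug1, Xrcc1, Parp1, Apex1, Neil2, Neil3, Gadd45b, Gadd45g, Asz1, Zbtb4, Setd2, Dnmt3c, Gm5648, Tdg-ps2 and the marker genes were named after their values were seen. A gene counted in the lists is not reported here.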

Additional observations from a re-analysis of the deposited data

How the results depend on the processing

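The count of 9 genes called higher was 2 under 11 of 12 other settings and 3 with no filter, and it was 1 when reads were summed with near-identical pseudogenes, which removed Tdg. The count called lower was 1, and ranged from 0 to 3 when each library was left out. With the replicate number as a block it was 2, since Tet3 joined Tet2 (log2 fold change -0.70, adjusted p = 0.0395). The block also gave 3 of the 5mC readers, 5 germline genes and 10 pathway genes called lower, 3 germline genes called higher, 3128 genes called higher in all and 2994 called lower. Libraries of the same number deviated together (correlation 0.332), but the labels give the number no meaning, so the pairing rests on the data alone. Leaving out each library in turn gave 4 to 13 pathway genes higher and 2 to 12 lower, and over all genes 642 to 3477 higher and 606 to 3311 lower. In these fits the lone sample of a genotype is assumed to vary like the other group. The direction turned for Dnmt3l (-0.069 to 0.76 with a library left out, negative without KO1) and Tet1 (-0.63 to 0.29, positive without WT1). The share of Dnmt3b in the de novo FPKM, 0.854 percentage points higher in Npac KO cells, ran from -1.14 to 2.85, and that of Tet3, 0.593 points lower, from -1.32 to 0.138, with the cause not tested. The log2 fold change of Dnmt3a kept its call and direction throughout, and that of Tet2 kept its direction. The lowest count among the 9 genes was 265 reads, of Tet3 in KO1, and with 2 libraries a genotype the standard errors ran from 0.18 to 0.31.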

Other observations

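As at Tdg, the counts of another pathway gene and its processed copy differed in opposite directions between genotypes, and the cause was not tested. Pcna, the replication clamp that guides maintenance methylation, had 2262 and 2064 reads in WT1 and WT2 and 3279 and 3117 reads in KO1 and KO2, a log2 fold change of 0.55 that was not called (adjusted p = 0.0813). Its processed copy Pcna-ps2, with an identity of 99.2%, had 944, 936, 34 and 29 reads in WT1, WT2, KO1 and KO2 (log2 fold change -4.90, adjusted p = 0.000123). The sum gave a log2 fold change of 0.05 ± 0.19 (adjusted p = 0.878). At Ahcy the copy moved the same way as the gene. Gm9826 had 13 and 22 reads in WT and 264 and 181 reads in KO1 and KO2, and the summed log2 fold change of Ahcy was 2.50. These copies were looked at after the values of Tdg-ps2 were seen.

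Most germline genes were higher in both libraries numbered 2. In 14 of the 15 genes, which is 93.3%, WT2 was above WT1 and KO2 above KO1, against 30.5% of all genes tested. Dazl, an RNA-binding protein of germ cells, had 372 and 1025 reads in WT1 and WT2 and 466 and 1093 reads in KO1 and KO2. Ddx4, a germ cell helicase, had 275, 742, 406 and 855 reads in the same order. The 9 writers and erasers did not share this pattern, with 0 of 9 higher in both libraries of number 2.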
